A study of Mus musculus with 10 samples.

Results

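The interaction of genotype and dextran sulfate sodium (DSS) asks, gene by gene, whether the intestine of ITGB6-transgenic (TG) mice answered DSS differently from that of wild-type (WT) mice. All 10 of the 10 libraries enter it, in 4 groups taken from the sample titles: untreated WT (3 libraries), untreated TG (3), WT given 2.5% DSS by mouth (2) and TG given 2.5% DSS by mouth (2). All groups are intestinal tissue of strain C57BL/6. The labels name the transgene as ITGB6 overexpression. The promoter that drives it, the cells it is active in, the number of founder lines, the age of the mice, the length of DSS exposure, the segment of gut and the hour of collection are not given in the sources used here. For each gene the value is the TG response, DSS minus untreated, minus the WT response, on the log2 scale, so a value above 0 means that the gene rose more or fell less in TG. The same number is the genotype difference after DSS minus the genotype difference without it, so genes whose untreated level differed were separated from genes whose response differed.

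DSS is a sulfated polysaccharide that damages the colonic epithelium when drunk and is a standard model of acute colitis. ITGB6 encodes the β6 subunit, which pairs with αv to form αvβ6, an epithelial integrin that binds fibronectin and the latent form of TGF-β and can release active TGF-β. An interaction does not need a gene to be high or low in any group; it needs the step between treatments to be of unequal size in the genotypes.

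Totals ran from 15393859 to 18284704 expected counts per library. The human ITGB6 entry summed to 6 counts over the 3 untreated WT libraries and 33 over the WT libraries given DSS. It summed to 189237 counts in untreated TG and 79447 in TG given DSS, so every library matched its genotype label. Treatment and sex went together: Xist was at 0 to 0.417 CPM (counts scaled to the library's size) in the 6 untreated libraries and at 307 to 739 CPM in the 4 DSS libraries, and the Y-linked Kdm5d was at 26.6 to 44.2 CPM in the former and at 0 in the latter, where a count of 0 allows up to 3 counts a library. DSS and sex therefore cannot be told apart in either response or in the interaction. Epithelial markers were high, with Krt8 at 5432 to 8801 CPM and Epcam at 1566 to 1985 CPM in every library. Smooth muscle Myh11 stayed at or below 0.308 CPM, and 9 smooth muscle markers summed to 7.24 to 10.8 CPM. The labels name intestinal tissue, and these levels are those of a sample rich in epithelial RNA and poor in smooth muscle RNA. The library untreated TG 1 stood apart, with a summed level of 7 leukocyte markers of 80.3 CPM against 193 and 285 CPM in the other untreated TG libraries, and Y-linked Ddx3y at 14.2 CPM against 42.1 to 46.4 CPM in the other untreated libraries. Nothing in the labels says whether libraries of a group are different mice, and the tests below use only library-to-library spread, which may be technical. In bulk tissue, fewer cells of a type and less RNA per cell cannot be told apart.

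Of 14072 genes tested, 119 (0.846%) had an interaction at an adjusted p under 0.05 by edgeR's quasi-likelihood test, 74 (0.526%) above 0 and 45 (0.32%) below 0. The untreated genotype difference passed for 520 genes (3.7%), 318 higher and 202 lower in TG. That split turned to 235 higher and 382 lower when libraries were scaled by their total counts. It also turned, to 225 higher and 331 lower, in a fit on the FPKM levels that the authors deposited. After DSS only 26 genes (0.185%) differed between genotypes, 25 of them higher in TG (0.178%) and 1, the predicted gene Gm12338, lower (0.00711%). DSS changed 2788 genes (19.8%) in WT and 771 (5.48%) in TG. Crossing the lists gave 81 genes with both an untreated difference and an interaction, 38 with an interaction alone and 439 with an untreated difference alone. In all 81 the interaction had the opposite sign to the untreated difference. The untreated libraries enter both contrasts with opposite sign, so this count says nothing by itself. The 520 untreated calls became 132, 91 and 58 without untreated WT 1, 2 and 3, and 136 and 247 without untreated TG 2 and 3. The 26 calls after DSS became 145 without untreated TG 1 and 134 without WT DSS 1, and 4 to 13 without any other library except WT DSS 2, which left 20.

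**Figure D1:**
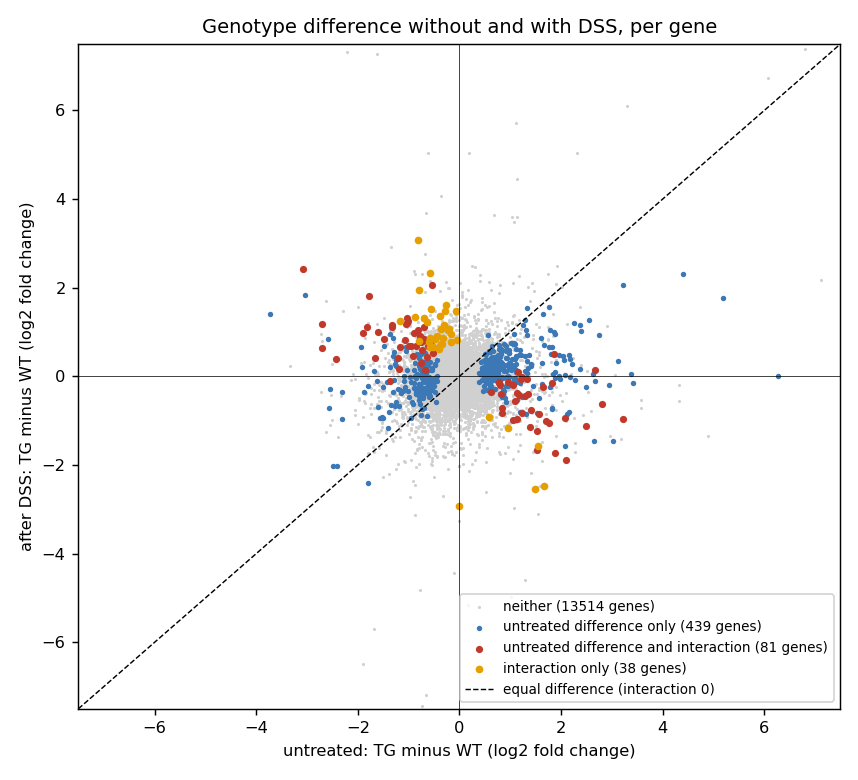
Each point is a gene, with the TG minus WT log2 fold change without DSS on the x axis and after DSS on the y axis. Genes with an interaction (red, 81; orange, 38) lie away from the dashed line of equal difference, and of the 439 genes with only an untreated difference (blue) Atoh1 alone has a called difference after DSS; the human ITGB6 entry and Gm17757 fall outside the plotted range.

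The 2 responses were read side by side to see what shape the interactions took. WT alone passed the DSS test for 70 of the 119 genes, TG alone for 19 and both for 30. Of those 30, 19 moved in opposite directions in the 2 genotypes and 11 moved the same way by unequal amounts. The response estimate was larger in WT for 83 genes (69.7%) and larger in TG for 36. Over all genes tested the DSS test passed for 19.8% in WT and 5.48% in TG, so WT calls were the more common there too. The split by larger estimate was not taken over all genes, so it is a description only. The smallest interaction called was 0.82 and the largest 5.52 on the log2 scale. Closest to the threshold, Ccdc107 and Cpe were inside at adjusted p = 0.0493, and Sema3g and Ecscr were outside at 0.0506.

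Leaving out libraries changed how many genes passed. The interaction count was 35, 63 and 41 without untreated WT 1, 2 and 3, and 385, 56 and 41 without untreated TG 1, 2 and 3. It was 424 and 101 without WT DSS 1 and 2, and 24 and 34 without TG DSS 1 and 2. In the 10 such fits, 19 of the 119 genes passed every time, 15 above 0 and 4 below 0. Those above 0 were Usp2, Aldh1a1, Cry2, Mt1, Slc2a5, Fmo5, Per3, Tsku, Cyp2d9, Tef, Ciart, Sstr1, Mt2, Dbp and Cyp4b1. Those below 0 were Pla2g4c, the human ITGB6 entry, Bst2 and Cd177. Aldh1a1, Cyp2d9, Fmo5, Tsku and Cd177 are described because of this count, after their values were seen.

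**Figure D2:**
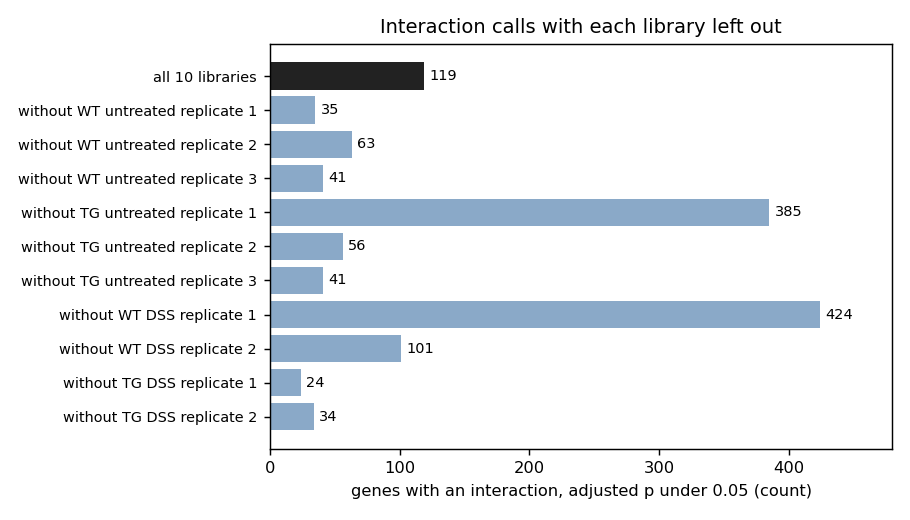
Bars give the number of genes with an interaction at adjusted p under 0.05 with all 10 libraries (black) and with each library left out (blue). The count runs from 24 without TG DSS 1 to 424 without WT DSS 1, against 119 with all libraries.

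Genes of the type I interferon response showed the broadest interaction below 0. These genes are switched on when type I interferon, through its receptor and STAT factors, brings the ISGF3 complex to interferon-stimulated response elements, and many of their products block viral replication. Of 34 measured members, 16 had an interaction below 0, against 0.32% of all genes tested, and none above 0; the median was -2.05, against 0.004 over all genes. The members called were Isg15, Ifit3, Oasl1, Oasl2, Oas1a, Oas2, Oas3, Mx1, Rsad2, Usp18, Bst2, Ifi44, Dhx58, Xaf1, Cmpk2 and Rtp4. All 34 estimates were below 0. In WT, 28 of the 34 rose with DSS, against 10.2% of all genes, with a median of 1.45. In TG 2 fell, against 2.15% of all genes, and the median response was -0.67. Without DSS 20 of the 34 were higher in TG, against 2.26% of all genes, with a median of 1.18. Thus 15 of the 16 belong to the class with both an untreated difference and an interaction, and another 5 members had an untreated difference alone. The count fell to 1 without TG DSS 1 or TG DSS 2, to 3 without untreated WT 1, untreated WT 3 or untreated TG 2, to 4 without untreated TG 3 and to 8 without untreated WT 2. It was 23 without untreated TG 1 and 24 without WT DSS 2. The median stayed between -2.53 and -1.40 over these 10 fits, and -1.40 was the value without WT DSS 1.

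The windows printed here, from RefSeq on GRCm38.p6, run from 250 bases before to 50 after the annotated start, and 89 of the 119 interaction genes had one. Isg15 and Bst2 are shown because they carry the pattern and their windows hold the response element. Capitals mark matches to TTTC, any 2 bases and TTTC on either strand, with overlapping matches run together. Isg15 is at chr4:156200769-156201068, minus strand, with 3 overlapping matches, and Bst2 is at chr8:71537423-71537722, minus strand, with 2.
Isg15: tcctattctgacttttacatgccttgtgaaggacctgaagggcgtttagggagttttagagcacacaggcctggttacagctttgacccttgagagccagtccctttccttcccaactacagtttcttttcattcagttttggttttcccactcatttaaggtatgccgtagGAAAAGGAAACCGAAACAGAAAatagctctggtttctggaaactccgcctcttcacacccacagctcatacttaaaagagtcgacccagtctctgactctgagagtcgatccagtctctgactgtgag
Bst2: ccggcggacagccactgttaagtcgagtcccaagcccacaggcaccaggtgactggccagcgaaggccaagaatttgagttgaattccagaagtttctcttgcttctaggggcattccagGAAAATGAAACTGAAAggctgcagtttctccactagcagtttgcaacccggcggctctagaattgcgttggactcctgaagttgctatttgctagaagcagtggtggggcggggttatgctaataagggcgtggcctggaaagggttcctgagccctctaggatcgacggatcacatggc
Of 11 called interferon members with a window, 6 held a match (Isg15, Ifit3, Oas1a, Oas3, Rsad2 and Bst2). Of all 27025 genes with a window, 3.99% did. A match is a run of letters and was not tested as a binding site.

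Bst2 encodes tetherin, a membrane protein that holds budding virions at the cell surface. It stood at 12.8, 13.4 and 13.7 CPM in untreated WT and at 51.1, 46.8 and 38.2 CPM in untreated TG. After DSS it stood at 63.2 and 47.5 CPM in WT and at 22.0 and 31.3 CPM in TG. The untreated groups did not overlap, and neither did the DSS groups, with the order of the genotypes turned round. Bst2 rose by 2.06 ± 0.19 (log2, SE) in WT and fell by 0.77 ± 0.19 in TG, an interaction of -2.82 ± 0.27 or 7.08-fold (edgeR adjusted p = 0.00161). Over the 10 fits without a library its adjusted p ran from 0.000962 to 0.0132.

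Isg15, a ubiquitin-like protein that is attached to other proteins during the interferon response, followed the same order. Its levels were 14.8, 18.5 and 12.4 CPM in untreated WT, 69.2, 68.3 and 56.1 CPM in untreated TG, 95.01 and 47.4 CPM in WT after DSS and 37.6 and 36.5 CPM in TG after DSS. The untreated TG levels lay between the WT levels after DSS, and both TG libraries after DSS were below them. The genotype difference of Isg15 after DSS did not pass (-0.94 ± 0.28, edgeR adjusted p = 0.247). The interaction was -3.02 ± 0.38 (edgeR adjusted p = 0.00734), and the adjusted p rose to 0.0598 without TG DSS 1 and 0.0565 without TG DSS 2.

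Oas2, which makes the oligoadenylates that activate RNase L, had 9.97 to 16.1 CPM in untreated WT, 44.1 to 61.4 CPM in untreated TG, 57.5 and 21.4 CPM in WT after DSS and 11.4 and 12.3 CPM in TG after DSS. It fell in TG by 2.13 ± 0.38 (edgeR adjusted p = 0.0110) and rose in WT by 1.49 ± 0.35 (0.0165). The 2 WT DSS libraries differ from each other more than the 3 untreated WT libraries do. Its interaction of -3.62 ± 0.52 had an adjusted p of 0.0154, which rose to 0.124 without TG DSS 1 and 0.0951 without TG DSS 2. Slfn4, a Schlafen family gene outside the list, moved alike, at 66.2 to 90.7, 188 to 253, 158 and 337, and 57.7 and 98.3 CPM in the same order of groups. Its interaction was -3.19 ± 0.45 (edgeR adjusted p = 0.0140, and 0.0757 without TG DSS 2). Ifi27l2a, an interferon-inducible gene with no untreated call, had an interaction of -4.03 ± 0.62 (edgeR adjusted p = 0.0205) on levels of 1.23 to 11.04 CPM. Its value ran from -4.57 to -3.17 over the 10 fits without a library, and its call was lost in some of them.

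The GTPases of the GBP and IRG families respond mostly to interferon-γ. Their interaction estimates leaned the same way, with 13 of 15 below 0 and 2 above. Their untreated levels did not: 1 was called higher in TG, against 2.26% of all genes, and the median was -0.23, against 1.18 for the type I list. Of 15 measured, 12 rose in WT, against 10.2% of all genes, and 3 in TG, against 3.33%. edgeR called 0 interactions among them, with 6 at an unadjusted p under 0.05 and 2 called by DESeq2, and the median interaction was -1.18. It called 1 without untreated WT 2, untreated TG 1 or WT DSS 2. Leukocyte markers summed to 231 to 444 CPM in untreated WT, 80.3 to 285 in untreated TG, 85.9 to 109 in WT after DSS and 88.1 to 96.6 in TG after DSS, with all 7 markers present. The sums overlapped between the genotypes both without and after DSS, and their part in the result was not tested.

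Genes of the unfolded protein response, which raises the folding capacity of the endoplasmic reticulum when unfolded proteins pile up there, had 6 interactions below 0 by edgeR among 25 measured members, against 0.32% of all genes. These were Creld2, Hyou1, Manf, Sdf2l1, Pdia4 and Pdia6, and all 6 were also higher in untreated TG. The median interaction was -0.61. Without DSS 12 of the 25 were higher in TG, against 2.26% of all genes. With DSS 14 rose in WT, against 10.2%, and 1 in TG, near the 3.33% of all genes. The count of interactions was 0 without TG DSS 1, 1 without untreated WT 1, 2 without untreated WT 3 and 11 without untreated TG 1. It was 3 without untreated WT 2, untreated TG 2, untreated TG 3, WT DSS 2 or TG DSS 2.

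Creld2, an endoplasmic reticulum protein induced by stress there, is printed because its window, chr15:88819396-88819695, plus strand, holds the endoplasmic reticulum stress element, searched as CCAAT, any 9 bases and CCACG on both strands and shown in capitals. The match is on the strand opposite to the one printed.
Creld2: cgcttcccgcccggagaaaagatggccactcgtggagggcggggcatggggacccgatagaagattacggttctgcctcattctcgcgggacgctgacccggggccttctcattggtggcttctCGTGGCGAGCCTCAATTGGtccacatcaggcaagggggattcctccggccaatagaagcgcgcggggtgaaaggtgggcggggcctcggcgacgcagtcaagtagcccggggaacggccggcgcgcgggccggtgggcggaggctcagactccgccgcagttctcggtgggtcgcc
The element was found in 2 of the 4 called members with a window (Creld2 and Pdia6) and in 0.137% of all genes with a window.

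Creld2 read 23.9, 19.5 and 23.2 CPM in untreated WT against 54.3, 56.3 and 56.5 CPM in untreated TG. After DSS it read 55.9 and 64.1 CPM in WT and 51.9 and 63.2 CPM in TG. The untreated groups were far apart and the DSS groups overlapped. It rose in WT by 1.44 ± 0.13, whereas the TG response was 0.05 ± 0.13 (edgeR adjusted p = 0.891). The interaction was -1.39 ± 0.19 (adjusted p = 0.0116, and 0.0928 without TG DSS 1). Hyou1, a chaperone of the endoplasmic reticulum, had 74.0 to 91.7 CPM in untreated WT, 187 to 205 in untreated TG, 190 and 209 in WT after DSS and 173 and 212 in TG after DSS. Its interaction was -1.26 ± 0.19 (edgeR adjusted p = 0.0205), with 0.124 without TG DSS 1 and 0.0572 without untreated WT 1.

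The core circadian clock had 6 interactions by edgeR among 16 measured members, all above 0. Over the 16 members, 10 estimates were above 0 and 6 below 0. DESeq2 called 7 above and 1 below, and edgeR without untreated TG 1 did the same. In this feedback loop CLOCK and BMAL1 drive the Per and Cry genes, whose products repress them, so levels swing over the day. Per1, Per2, Per3, Cry2 and Ciart were among those called, against 0.526% of all genes, and the list's median was 0.68. Of the 16, 9 fell in WT, against 9.62% of all genes, and 2 fell in TG, against 2.15%. In the other direction 3 rose in WT, against 10.2% of all genes, and 1 rose in TG, against 3.33%. The count was 3 without TG DSS 1 or 2, WT DSS 2 or untreated TG 3. Of the 3 measured PAR bZIP factors, through which the clock reaches its output genes, Dbp and Tef were called above 0, and both passed in each of the 10 fits without a library. The third measured factor went the other way, with a rise in WT and an interaction below 0 at an unadjusted edgeR p under 0.05. DESeq2 called that interaction. The hour at which tissue was taken is not given, so its part in these values was not tested.

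Per3 and Tef are printed for the elements in their windows: Per3 at chr4:151044616-151044915, minus strand, with the D-box TTATGTAA, and Tef at chr15:81802423-81802722, plus strand, with the E-box CACGTG. Capitals mark the matches, and both strands were searched.
Per3: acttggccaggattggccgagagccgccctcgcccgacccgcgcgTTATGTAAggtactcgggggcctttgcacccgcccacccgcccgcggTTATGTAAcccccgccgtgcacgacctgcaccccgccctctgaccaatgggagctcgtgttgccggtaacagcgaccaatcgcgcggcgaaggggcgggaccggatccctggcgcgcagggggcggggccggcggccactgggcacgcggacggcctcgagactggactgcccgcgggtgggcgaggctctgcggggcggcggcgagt
Tef: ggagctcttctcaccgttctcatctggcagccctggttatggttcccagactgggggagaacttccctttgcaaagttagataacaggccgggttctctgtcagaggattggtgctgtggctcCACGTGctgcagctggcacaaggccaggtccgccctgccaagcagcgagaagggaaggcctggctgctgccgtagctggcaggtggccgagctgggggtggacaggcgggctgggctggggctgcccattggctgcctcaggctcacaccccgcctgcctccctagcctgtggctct
Of 6 called clock and output genes with a window, 3 held an E-box (Per1, Ciart and Tef), as did 8.09% of all genes with a window. A D-box was held by 1 of the 6 (Per3) and by 1.11% of all genes with a window.

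Tef had 200, 198 and 193 CPM in untreated WT and 148, 136 and 124 CPM in untreated TG. After DSS it had 20.3 and 25.8 CPM in WT against 90.7 and 101 CPM in TG. TG was lower than WT without DSS and higher after it, with no overlap either time. Tef fell by 3.09 ± 0.14 in WT and fell by 0.50 ± 0.13 in TG, and the interaction was 2.59 ± 0.18 or 6.02-fold (edgeR adjusted p = 0.000227).

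Dbp (chr7:45705100-45710203), a close relative of Tef, had no untreated call: 85.0, 118 and 110 CPM in WT against 68.1, 52.7 and 57.2 CPM in TG (edgeR adjusted p = 0.0606). After DSS it was at 4.25 and 3.67 CPM in WT and 24.0 and 43.0 CPM in TG. The WT level fell by 4.72 ± 0.30, and the TG response was -0.82 ± 0.24 (adjusted p = 0.0770). Its interaction was 3.90 ± 0.36, or 14.9-fold (adjusted p = 0.00161).

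Per3, a period gene, had 62.2, 63.3 and 58.8 CPM in untreated WT, 34.1, 28.2 and 26.2 CPM in untreated TG, 13.1 and 10.7 CPM in WT after DSS and 30.1 and 24.2 CPM in TG after DSS. Per3 fell by 2.37 ± 0.17 in WT, and the TG response was -0.12 ± 0.15 (edgeR adjusted p = 0.730). The interaction was 2.25 ± 0.22 (edgeR adjusted p = 0.00175). Cry2, a cryptochrome that represses the loop, had an interaction of 1.86 ± 0.20 (0.00269), with WT at 42.0 to 47.7 CPM untreated and 10.9 and 14.4 CPM after DSS and TG at 24.5 to 27.6 CPM throughout. Ciart, a repressor of CLOCK and BMAL1, fell by 3.73 ± 0.28 in WT and fell by 0.98 ± 0.23 in TG. Usp2, a deubiquitinase with clock-driven expression, was at 38.2 to 52.4 CPM in all untreated libraries, 16.7 and 22.1 CPM in WT after DSS and 51.3 and 57.5 CPM in TG after DSS. Its interaction was 1.77 ± 0.19 (adjusted p = 0.00288).

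The metallothioneins Mt1 and Mt2, small cysteine-rich proteins that bind zinc and copper, moved in opposite directions in the 2 genotypes. They were the 2 genes called above 0 among 11 measured metallothionein and zinc transport genes, against 0.526% of all genes. The list's median was 0.18, and both passed in all 10 fits without a library. The window of Mt2, chr8:94172368-94172667, plus strand, is printed for its metal response elements, searched as TGCGCNC on both strands and shown in capitals.
Mt2: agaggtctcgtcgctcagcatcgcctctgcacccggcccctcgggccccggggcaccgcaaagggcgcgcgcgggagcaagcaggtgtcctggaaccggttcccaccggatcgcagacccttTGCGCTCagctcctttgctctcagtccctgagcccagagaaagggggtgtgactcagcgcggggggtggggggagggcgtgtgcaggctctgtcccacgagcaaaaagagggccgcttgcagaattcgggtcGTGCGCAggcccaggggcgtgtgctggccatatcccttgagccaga
Both Mt1 and Mt2 held this short element, as did 17.0% of all genes with a window. Mt2 was at 113, 109 and 117 CPM in untreated WT and 18.5, 20.1 and 13.3 CPM in untreated TG. After DSS it was at 52.7 and 49.3 CPM in WT and 77.1 and 80.7 CPM in TG. Mt2 fell by 1.15 ± 0.16 in WT and rose by 2.19 ± 0.15 in TG, giving an interaction of 3.34 ± 0.22 or 10.1-fold (edgeR adjusted p = 0.000227). Mt1 fell by 0.96 ± 0.18 in WT and rose by 1.11 ± 0.17 in TG, an interaction of 2.07 ± 0.24 (adjusted p = 0.00545). Its level was 321 to 334 CPM in untreated WT, 88.8 to 125 in untreated TG, 140 and 196 in WT after DSS and 223 in each TG library after DSS. Mt3, another metallothionein, and Slc39a4, a zinc transporter, were higher in untreated TG, by 1.77 and 1.12, against 2.26% of all genes. Both are named after their values were seen, and neither had an interaction call (Mt3 -0.21 ± 0.56, edgeR adjusted p = 0.931; Slc39a4 -0.67 ± 0.19, 0.159).

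**Figure D3:**
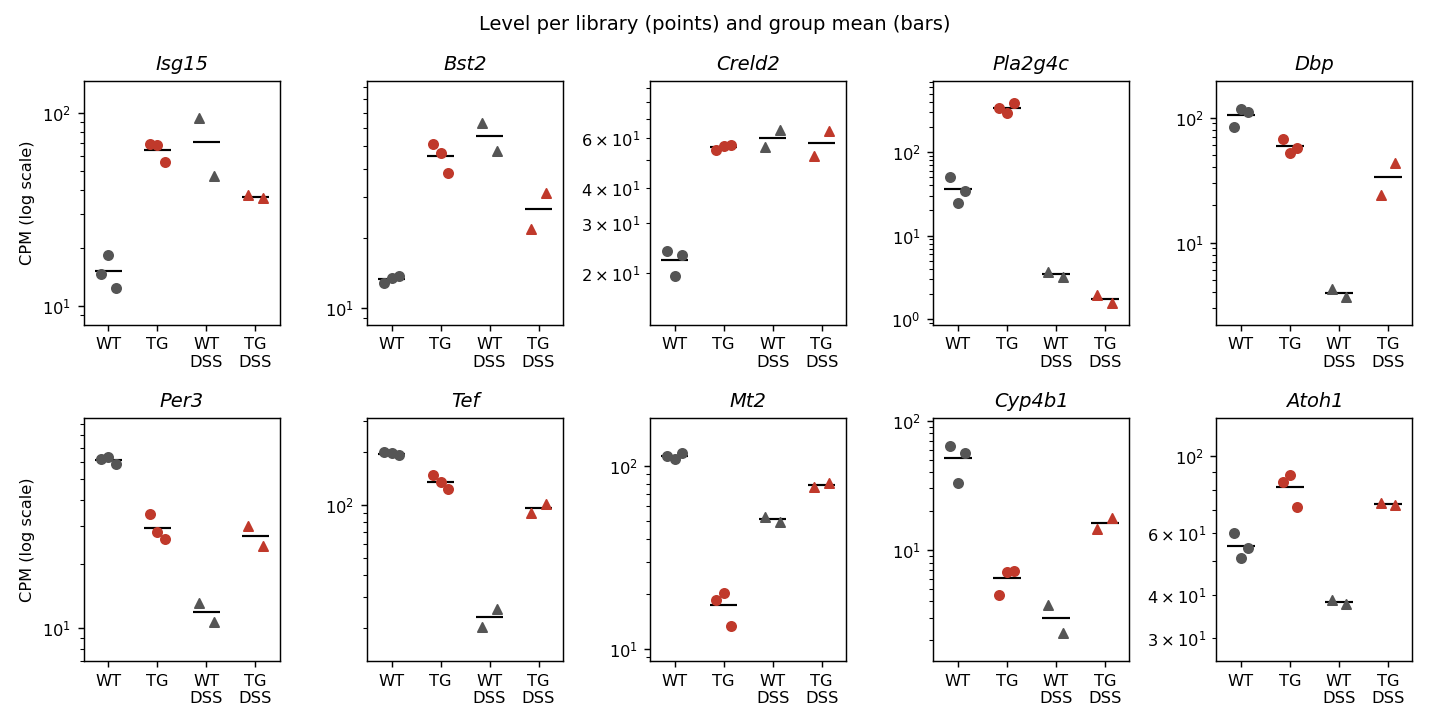
Each panel is a gene, with CPM on a log axis, 1 point per library (grey WT, red TG; circles untreated, triangles DSS) and a bar at the group mean. Isg15 and Bst2 are high in untreated TG and in WT after DSS, and Atoh1 is higher in TG both times. Dbp, Per3, Tef, Mt2 and Cyp4b1 are lower in TG without DSS and higher in TG after it. The untreated difference of Dbp and the after-DSS differences of Isg15, Bst2 and Mt2 did not pass edgeR's test.

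Genes of oxidation and detoxification held the largest of the 119 interactions. Cyp4b1, a cytochrome P450 that oxidises fatty acids and foreign compounds (chr4:115624698-115647721), was at 64.0, 33.2 and 56.9 CPM in untreated WT and 4.47, 6.79 and 6.89 CPM in untreated TG. After DSS it was at 3.72 and 2.27 CPM in WT and 14.6 and 17.6 CPM in TG. Cyp4b1 fell by 4.10 ± 0.36 in WT and rose by 1.41 ± 0.30 in TG, and the interaction was 5.52 ± 0.46 or 45.7-fold (edgeR adjusted p = 0.000879). Of 17 measured cytochrome P450 genes, it and Cyp27a1 were called above 0, against 0.526% of all genes, and the median was 0.54. The count was 1 without untreated WT 1, 2 or 3, untreated TG 2 or 3, WT DSS 2, TG DSS 1 or TG DSS 2. The count was 4 without untreated TG 1 and 5 without WT DSS 1.

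Cyp2d9, another cytochrome P450, stood at 17.5 to 21.7 CPM in untreated WT, 6.80 to 8.09 in untreated TG, 10.9 and 13.6 in WT after DSS and 26.4 and 26.9 in TG after DSS. It fell by 0.63 ± 0.16 in WT and rose by 1.81 ± 0.16 in TG (interaction 2.44 ± 0.23, edgeR adjusted p = 0.00161). The mouse Cyp2d genes are near-copies, so reads shared among them make this value uncertain. Fmo5, a flavin-containing monooxygenase, had 78.4 to 84.2 CPM in untreated WT, 34.3 to 47.0 in untreated TG, 21.4 and 27.3 in WT after DSS and 52.7 and 60.1 in TG after DSS (interaction 2.24 ± 0.22, adjusted p = 0.00175). Aldh1a1, which turns retinaldehyde into retinoic acid, had 322 to 372, 183 to 251, 102 and 117, and 212 and 259 CPM in the same order of groups (interaction 1.81 ± 0.22, adjusted p = 0.00588). In each of these genes TG was below WT without DSS and above it after DSS, with no overlap.

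Tsku, a secreted leucine-rich protein, was at 96.5, 87.2 and 95.1 CPM in untreated WT, 47.3, 46.8 and 43.4 CPM in untreated TG, 39.6 and 45.5 CPM in WT after DSS and 103 and 100.2 CPM in TG after DSS. WT fell by 1.13 ± 0.11 and TG rose by 1.15 ± 0.11, and the DSS libraries of each genotype lay near the untreated libraries of the other (interaction 2.28 ± 0.15, edgeR adjusted p = 0.000227). Sstr1, a somatostatin receptor, fell from 94.3 to 115 CPM to 7.02 and 11.8 CPM in WT. In TG it was at 27.0 to 31.7 CPM untreated and 18.7 and 22.0 CPM after DSS (interaction 2.93 ± 0.28, adjusted p = 0.00161).

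The lists of colonocyte genes and of fatty acid oxidation and ketogenesis genes also had medians above 0. Of 23 colonocyte genes 3 were called (Car4, Atp12a and Saa1), and of 24 genes of fatty acid oxidation and ketogenesis 3 were called (Acaa1b, Slc25a20 and Angptl4), all above 0, against 0.526% of all genes. The medians were 0.68 and 0.49. All 24 of the latter had estimates above 0, as had 20 of the 23 colonocyte genes. Saa1, which encodes serum amyloid A, also belongs to the list of acute-phase and epithelial defence genes. Of the 21 measured there, 18 had estimates below 0 and 3 above, with a median of -1.15. The colonocyte count was 0 without TG DSS 1, 8 without WT DSS 1 and 1 without untreated WT 1, 2 or 3, untreated TG 2 or 3, or TG DSS 2. The fatty acid count was 0 without TG DSS 1, 9 without untreated TG 1, 7 without WT DSS 1 and 1 without untreated WT 1, 2 or 3, untreated TG 2 or 3, or TG DSS 2. Car4, a carbonic anhydrase of the apical membrane, was at 550 to 569 CPM in untreated WT and 269 to 387 in untreated TG. After DSS it was at 309 and 381 CPM in WT and 637 and 653 CPM in TG, so the order of the genotypes turned round. Its genotype difference after DSS did not pass (0.90 ± 0.17, edgeR adjusted p = 0.0869). Its interaction was 1.68 ± 0.22 (edgeR adjusted p = 0.00776, and 0.0507 without TG DSS 1).

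Acaa1b, a peroxisomal thiolase, rose in TG by 1.67 ± 0.20, from 8.56 to 11.2 CPM to 26.7 and 34.1 CPM. In WT it was at 12.4 to 18.3 CPM untreated and 11.3 and 13.1 CPM after DSS (-0.34 ± 0.20, adjusted p = 0.268). Its interaction was 2.01 ± 0.28 (edgeR adjusted p = 0.0145, and 0.0954 without TG DSS 1). Slc2a5, the fructose transporter GLUT5, fell in WT by 2.09 ± 0.19, and its TG response was -0.02 ± 0.17 (edgeR adjusted p = 0.976). Its levels were 9.62 to 11.9, 6.56 to 7.93, 2.38 and 2.54, and 6.79 and 7.27 CPM in untreated WT and TG and then in WT and TG after DSS (interaction 2.08 ± 0.26, adjusted p = 0.00734). Cubn, the cubilin receptor for vitamin B12 bound to intrinsic factor, was at 9.60 to 14.4, 2.98 to 4.09, 3.29 and 4.49, and 6.50 and 8.79 CPM (interaction 2.87 ± 0.37, adjusted p = 0.00776, and 0.0541 without TG DSS 1).

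A smaller set was high in untreated TG and fell most steeply there. Pla2g4c, a membrane-bound member of the cytosolic phospholipase A2 family (chr7:13311507-13360674), was at 50.1, 24.7 and 34.1 CPM in untreated WT and 334, 292 and 385 CPM in untreated TG. After DSS it was at 3.66 and 3.24 CPM in WT and 1.93 and 1.58 CPM in TG. It fell by 3.39 ± 0.30 in WT and fell by 7.58 ± 0.36 in TG, and the interaction was -4.18 ± 0.44 or 18.2-fold (edgeR adjusted p = 0.00252). Among 13 phospholipase A2 genes edgeR called it alone, also in each fit without a library, and DESeq2 called 2. Fn1, fibronectin, a ligand of αvβ6, was at 3.75 to 7.63 CPM in untreated WT, 23.9 to 46.6 in untreated TG, 2.19 and 2.32 in WT after DSS and 1.29 and 1.64 in TG after DSS. Its interaction was -3.42 ± 0.55 (edgeR adjusted p = 0.0238), and the adjusted p was 0.0743 without untreated WT 1, 0.0598 without untreated TG 3, 0.0783 without WT DSS 2, 0.129 without TG DSS 1 and 0.134 without TG DSS 2. Fibroblast markers summed to 76.7 to 122 CPM in untreated WT, 58.6 to 117 in untreated TG and 52.4 to 58.1 over the DSS libraries, with all 12 in the files. Of the 11 tested, 4 were higher in untreated TG (Col1a2, Col6a3, Dpt and Fbln1), against 2.26% of all genes, with a median of 1.62. Their median interaction was -1.04, below 0 like that of Fn1, and their part in the Fn1 value was not tested.

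Cd177, a surface glycoprotein known from neutrophils, was at 155, 180 and 166 CPM in untreated WT and 447, 475 and 365 CPM in untreated TG. After DSS it was at 331 and 324 CPM in WT and 234 and 265 CPM in TG. It rose in WT by 0.97 ± 0.13 and fell in TG by 0.78 ± 0.13 (interaction -1.75 ± 0.19, edgeR adjusted p = 0.00269). Neutrophil markers, 11 of 12 in the files, summed to 61.9 to 79.1 CPM in untreated WT, 29.7 to 39.6 in untreated TG, 148 and 158 in WT after DSS and 195 and 266 in TG after DSS. Most of that sum was Ly6g, at 55.7 to 72.1, 23.5 to 33.6, 103 and 120.3, and 159 and 235 CPM in the same order. Ly6g was also the 1 marker that edgeR called, above 0, a call lost without untreated WT 1, untreated WT 3, untreated TG 3 or TG DSS 2. Of the 8 markers tested, 6 had interaction estimates below 0, as Cd177 did, and the median was -0.46. Their part in the Cd177 value was not tested.

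The 38 genes with an interaction and no untreated call are those whose response differed without a called difference to start from. Of these, 32 were above 0 and 6 below, and 10 differed between genotypes after DSS. The untreated estimates were lower in TG for 33 of the 38. The untreated libraries enter both contrasts with opposite sign, so this count does not show that the levels differed. A missed untreated call does not show equal levels either. Phospho1, a phosphatase best known from bone mineralisation, was among them, at 19.8 to 32.2 CPM in all untreated libraries, 15.99 and 17.96 CPM in WT after DSS and 48.6 and 55.3 CPM in TG after DSS. It fell by 0.64 ± 0.19 in WT and rose by 1.23 ± 0.18 in TG (interaction 1.87 ± 0.26, edgeR adjusted p = 0.0126, with 0.0541 without TG DSS 1 and 0.0701 without TG DSS 2). Dbp, Usp2, Ciart, Slc2a5 and Acaa1b, described above, belong to the same class.

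The 439 genes with an untreated call and no interaction call split by how tightly the interaction was bounded. For 153 of them (34.9%) the 95% interval of the interaction lay within 1 on the log2 scale either way, so a response difference of 2-fold or more was outside the interval. Of the 439, 273 had an unadjusted interaction p under 0.05. The median SE was 0.172 for the untreated difference and 0.271 for the interaction, 1.58 times larger. Missing the interaction threshold thus does not show that the responses were alike.

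Atoh1, the transcription factor that commits progenitors to the secretory lineage, was the only one of the 439 that also differed after DSS. Its level was 60.3, 50.9 and 54.6 CPM in untreated WT, 84.3, 88.2 and 71.6 CPM in untreated TG, 38.8 and 37.6 CPM in WT after DSS and 73.3 and 72.4 CPM in TG after DSS. TG was higher both times with no overlap, by 0.56 ± 0.11 and 0.93 ± 0.14. The interaction was 0.37 ± 0.17, with a 95% interval from -0.01 to 0.76 (edgeR adjusted p = 0.428). Goblet cell genes gave 8 of 18 members higher in untreated TG, against 2.26% of all genes, and 0 interactions by edgeR, with 4 at an unadjusted p under 0.05 and 1 called by DESeq2. edgeR called 1 without untreated WT 2 or untreated TG 1. Retnlb, a goblet cell peptide, was at 101 to 201 CPM in untreated WT, 835 to 1241 in untreated TG, 105 and 117 in WT after DSS and 208 and 215 in TG after DSS. Its interaction of -1.82 ± 0.37 missed the threshold (edgeR adjusted p = 0.0620).

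Collagens are the fibrous proteins of the matrix. Of 16 measured, 6 were higher in untreated TG, against 2.26% of all genes. edgeR called 0 interactions, with 6 at an unadjusted p under 0.05, 3 by DESeq2 and a median of -0.76; without untreated TG 1 it called 4, all below 0. Of the 4 fibroblast markers called higher in untreated TG, Col1a2 and Col6a3 are themselves among these collagens. The median untreated difference over the 11 fibroblast markers tested was 1.62, while the sum over all 12 overlapped between untreated WT and TG, as given above beside Fn1. The part of the fibroblast markers in the collagen values was not tested. Col1a1 was at 4.05 to 8.80 CPM in untreated WT, 10.97 to 28.4 in untreated TG and 2.29 to 3.29 after DSS in either genotype (interaction -2.02 ± 0.62, edgeR adjusted p = 0.210). Col3a1 had an interaction of -2.04 ± 0.66 (adjusted p = 0.241), at 5.16 to 12.1, 13.8 to 45.8, 7.21 and 8.10, and 7.27 and 7.44 CPM. Cytosolic heat shock chaperones had 6 of 17 members higher in untreated TG, against 2.26% of all genes, and 0 interactions by edgeR, with 7 at an unadjusted p under 0.05 and 4 by DESeq2. Without untreated TG 1 edgeR called 6 chaperones below 0, and without WT DSS 1 it called 5.

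DNA replication and mitosis genes mark cycling cells. Of 22 measured, 19 rose in WT, against 10.2% of all genes. The median response there was 1.36, and the median in TG was 0.36. All 22 interaction estimates were below 0, with a median of -1.11, yet edgeR called 0; 10 had an unadjusted p under 0.05 and DESeq2 called 0. Without WT DSS 1 edgeR called 11 below 0 and the median was -1.60; without WT DSS 2 the median was -0.18. Erythrocyte markers, 8 of 8 in the files, summed to 216 to 354 CPM in untreated WT, 430 to 677 in untreated TG, 77.4 and 82.0 in WT after DSS and 130 and 274 in TG after DSS. After DSS edgeR called 3 of their 6 tested members higher in TG, against 0.178% of all genes, and 0 lower, with a median difference of 3.54. Without DSS it called 0, with a median of 1.10. The 6 had a median interaction of 2.44, with 0 called by edgeR, 4 at an unadjusted p under 0.05 and 2 by DESeq2. Without TG DSS 1 the median was 1.37, without untreated TG 1 edgeR called 1 and without TG DSS 2 it called 2.

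**Figure D4:**
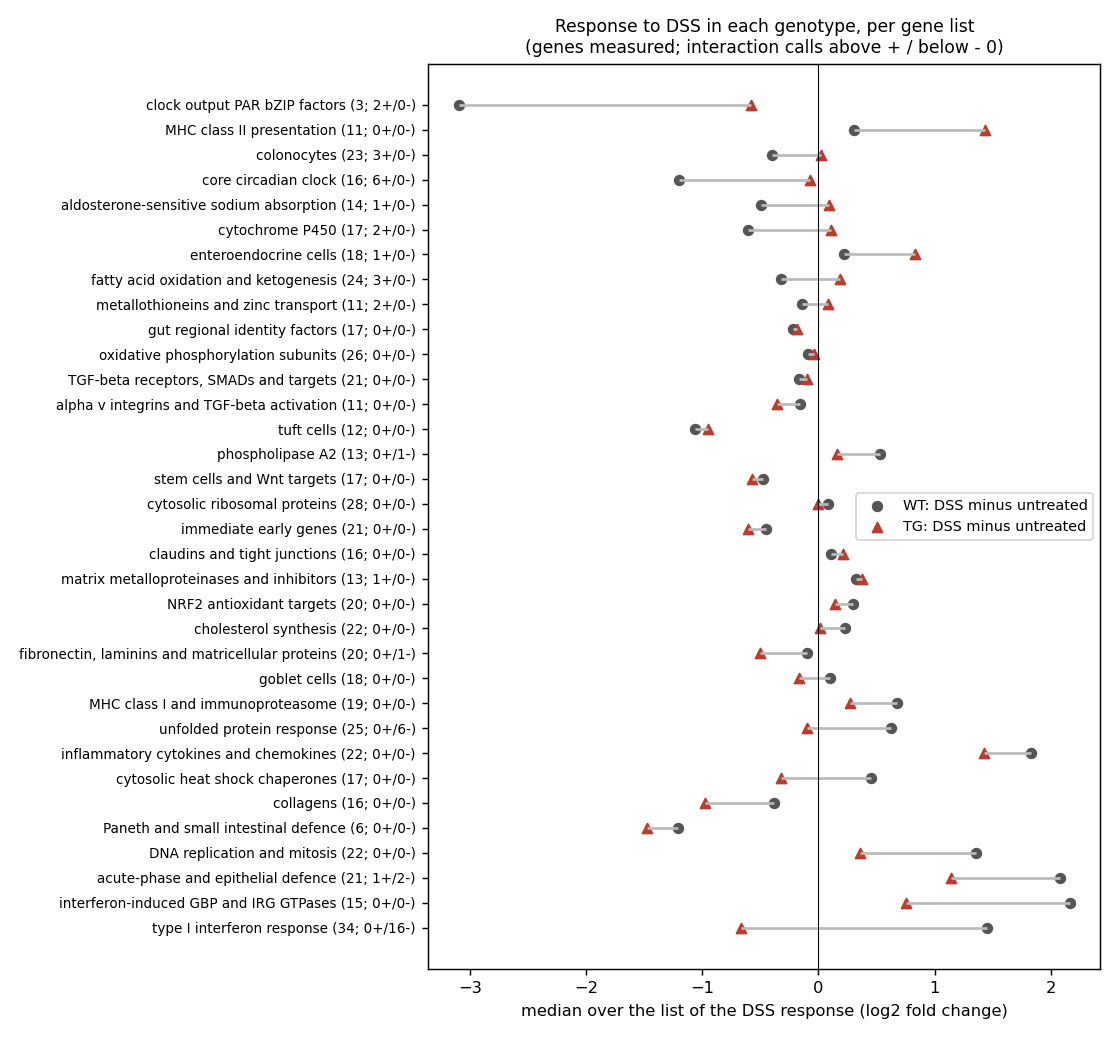
For each gene list the median DSS response is shown in WT (grey circles) and TG (red triangles) on the log2 scale, with the number of genes measured and the interactions called above and below 0 beside its name. Type I interferon genes lie at 1.45 in WT and -0.67 in TG, while ribosomal and oxidative phosphorylation genes lie near 0 in both. The PAR bZIP factors lie at -3.09 and -0.58, medians over 3 genes of which 1 rose in WT.

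The integrin and TGF-β genes were described because ITGB6 is the transgene. Among 11 αv integrin and TGF-β activation genes edgeR called 0 interactions, with 0 at an unadjusted p under 0.05, 0 by DESeq2 and a median of -0.01. Among 21 TGF-β receptors, SMADs and targets it called 0, with 1 at an unadjusted p under 0.05, 0 by DESeq2 and a median of -0.004; without WT DSS 1 it called 1. The mouse Itgb6 gene was at 16.5 to 22.4 CPM in the untreated libraries and 27.95 to 38.3 CPM after DSS, and rose by 0.65 ± 0.15 in WT and 0.63 ± 0.15 in TG. Its interaction was -0.01 ± 0.22, with a 95% interval from -0.50 to 0.47 (edgeR adjusted p = 0.987). The human ITGB6 entry fell in TG by 0.71 ± 0.13, from 3632, 3853 and 3913 CPM to 2453 and 2201 CPM. Its called interaction of -3.59 ± 0.39 rests on the 6 and 33 counts in WT. Oxidative phosphorylation subunits (26) and cytosolic ribosomal proteins (28) had medians of 0.04 and -0.06, with 0 called by edgeR, 0 at an unadjusted p under 0.05 and 0 by DESeq2.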

How the data were processed

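Poly-A RNA of mouse intestinal tissue was sequenced on a BGISEQ-500 library preparation, per the labels' protocols. Tools listed in the submitters' processing notes are RSEM 1.2.12, HISAT2 2.0.4 and Bowtie2 2.2.5, without a role or order, on mm10. The authors deposited, per library, expected counts and FPKM values per gene, per the file headers; strand use is not given in the sources used here. Expected counts were rounded to whole numbers, a gene missing from a library was taken as 0, and 19456 genes were joined by identifier. Names and positions came from RefSeq on GRCm38.p6, which matched 19399 identifiers. The 4 groups came from the sample titles. edgeR 4.0.16 (R 4.3.3) kept 14072 genes (minimum count 10, total 15), scaled by TMM and fitted a mean per group with a quasi-likelihood test over all 10 libraries, leaving 6 residual degrees of freedom. CPM values use these scaled library sizes, and a value after ± is a standard error of a log2 difference. Calls are at a Benjamini-Hochberg adjusted p under 0.05 over all genes. Groups hold 3 or 2 libraries, at 15393859 to 18284704 counts each.

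Alternatives were DESeq2 1.42.0, limma 3.58.1 on the deposited FPKM (log2 with a pseudocount of 1 or 0.1), other scalings and filters, the replicate number as a block, and leaving out each library. Where leaving out a library leaves 1 in a group, that one is assumed to vary like the others. Leaving out the X and Y genes was added after seeing the data. Of 13 same-numbered pairs of libraries, 2 had deviations from the group mean correlated above 0.1, as had 6 of 24 differently numbered pairs. In a group of 2 libraries these deviations are mirror images, so the correlations cannot decide whether the numbers pair libraries. Named genes are ITGB6 and Itgb6, up to 8 per direction with the largest interaction in each class of genotype call, genes with a lasting genotype difference, Fn1, Col1a1, Col3a1, Retnlb, Pla2g4c and Mt2, up to 4 called members of each list, and the genes called in every fit without a library. Members, lists and motifs were chosen with earlier results of these data known. The interaction test was tested on simulated data before use. It recovered 25.4% of 67 simulated 2-fold interactions, 80.6% of 67 4-fold and 90.9% of 66 8-fold ones. Of its calls there, 7.7% were false.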

Additional observations from a re-analysis of the deposited data

Results flagged for a closer look

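In 8 genes the genotype difference passed edgeR's test both without and after DSS, in opposite directions, with TG lower in every untreated library and higher in every DSS library. Their interactions on the log2 scale were 5.52 for Cyp4b1, 2.59 for Tef, 2.44 for Cyp2d9, 2.28 for Tsku, 2.25 for Per3, 2.24 for Fmo5, 1.86 for Cry2 and 1.81 for Aldh1a1. The interaction is the difference of the 2 values by which these genes were picked, so its size is a description and gives no separate support.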

How the results depend on the processing

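All 119 interactions kept their sign in every alternative in which they were tested. DESeq2 called 426 interactions, 1052 untreated differences, 255 differences after DSS, 1203 TG responses and 274 genes in both the untreated difference and the interaction. With the replicate number as a block, a pairing that could not be decided, the count of interactions was 41. The other counts with this block were 166 untreated, 7 after DSS, 1614 WT and 356 TG responses, and 26 in both. The count after DSS was 7 with total count scaling, 8 with log2(FPKM + 0.1), 9 with log2(FPKM + 1) and 12 with that and no filter. Leaving out 1 library gave 24 to 424 interactions, 58 to 730 untreated differences, 4 to 145 after DSS, 970 to 4112 WT responses, 173 to 1677 TG responses and 19 to 218 genes in both. Total count scaling turned the WT response from 1434 higher and 1354 lower to 1146 and 1700, and moved the after-DSS split from 25 and 1 to 6 and 1. The WT response split was 990 and 1573 with log2(FPKM + 1), 956 and 1562 with log2(FPKM + 0.1) and 1203 and 1525 with upper quartile scaling. The untreated split was 225 and 331 with log2(FPKM + 1) and 218 and 312 with log2(FPKM + 0.1). Without WT DSS 2 the interactions split into 37 above and 64 below 0. The cause was not tested. Of 1471 values for 67 named genes, 1153 kept their side of the threshold, 304 lost it, 8 gained it and 6 changed sign. All 6 were Itgb6, whose value ran from -0.206 to 0.203 with 1 library left out: 0.002 with log2(FPKM + 0.1), 0.04 without untreated WT 3, 0.01 and 0.07 without untreated TG 2 and 3, 0.20 without WT DSS 1 and 0.04 without TG DSS 1. With 2 DSS libraries per genotype, the interaction had the largest median SE of the 5 contrasts, 0.271 on the log2 scale, which limits how far a missing call can be read.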
